A study of Homo sapiens with 9 samples.

Results

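BTG1, BTG2, TOB1, TOB2 and PDCD4 are 5 genes whose proteins restrain growth by acting on mRNA, and their ribosome footprints were followed through the activation of a human T cell line. They were taken by Ensembl ID (BTG1, ENSG00000133639.6; BTG2, ENSG00000159388.6; TOB1, ENSG00000141232.5; TOB2, ENSG00000183864.5; PDCD4, ENSG00000150593.18), 5 of the 19569 gene IDs in the deposited count table, and all 5 passed the low-count filter that left 13920 IDs for testing. Ribosome profiling sequences the stretch of mRNA that each translating ribosome shields, so a footprint count reflects both the amount of an mRNA and how heavily it is translated. The cells were Jurkat clone E6-1, an established T lymphoblast leukaemia line, so all libraries come from 1 clone. Resting cells had no treatment, and the other cells were stimulated for 5 h or 12 h on plates coated with anti-CD3 antibody (10 µg/mL) in medium holding anti-CD28 antibody (5 µg/mL), which engage the receptor complex and its costimulatory receptor. Each group had 3 libraries, which the series' design text calls biological replicates. The series concerns how miRNAs repress translation and degrade mRNA during T cell activation.

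The BTG and TOB proteins form 1 family. Each carries a BTG domain that binds CNOT7 and CNOT8, deadenylase subunits of the CCR4-NOT complex, and brings the deadenylase to mRNAs so that their poly(A) tails are shortened. TOB1 and TOB2 also hold a longer tail region that binds cytoplasmic poly(A)-binding protein. In mice, BTG1 and BTG2 keep naive T cells quiescent, and in human T cells TOB1 has been described as a negative regulator of activation. PDCD4 acts at another step: it binds the helicase eIF4A and blocks the unwinding of mRNA leaders during initiation, and after phosphorylation by S6 kinase the protein is degraded through the ubiquitin ligase subunit beta-TrCP. PDCD4 and BTG2 mRNAs are both known targets of miR-21.

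The libraries held 4343515 to 18506509 counts, the fewest in 12 h replicate 2 and the most in 5 h replicate 3. Libraries of 1 group resembled each other more than those of different groups: across genes, log2 CPM gave correlations of 0.955 to 0.976 for libraries of a group and of 0.928 to 0.955 otherwise. Levels are CPM, the usual count unit per library size, after TMM scaling, which sets the libraries to a common size. A rise or fall is therefore relative to the rest of the footprints. Footprints in fewer cells and fewer footprints per cell cannot be told apart in bulk libraries, nor can less mRNA and weaker translation. Both comparisons against resting cells use the same resting libraries. These were taken at 0 h, and no library came from untreated cells held for 5 h or 12 h. Antibody stimulation therefore cannot be told apart from plating, handling and time in culture, and activation below stands for all of them. Differences were tested with edgeR's quasi-likelihood test over all 13920 IDs, and an ID was called at a Benjamini-Hochberg adjusted p under 0.05. CPM is not divided by coding length here, so levels are compared between groups for 1 gene and not between genes.

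The called differences from resting cells went in different directions at 5 h, and only BTG1 was called at 12 h. BTG1 rose about 4-fold by 5 h and stayed about 3-fold up at 12 h. TOB1 and TOB2 fell at 5 h, to 0.676 and 0.622 of their resting levels, and TOB1 averaged 17.4 CPM at 12 h, against 17.3 CPM at rest. PDCD4 showed a shallow dip at 5 h that did not pass the test, and BTG2 was not called, with 8 to 64 counts per library and wide intervals. At 5 h versus resting, 1 of the 5 genes was called higher and 2 lower, against 34.5% of all tested IDs called in either direction, 16% higher and 18.4% lower. With 5 genes, no excess over that background can be read from these counts. At 12 h versus resting, 1 gene was called higher and 0 lower by edgeR, against 35.1% of IDs called, 15.8% higher and 19.3% lower. No gene had an unadjusted p under 0.05 downward at 12 h, and neither DESeq2 nor limma called one lower.

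**Figure D1:**
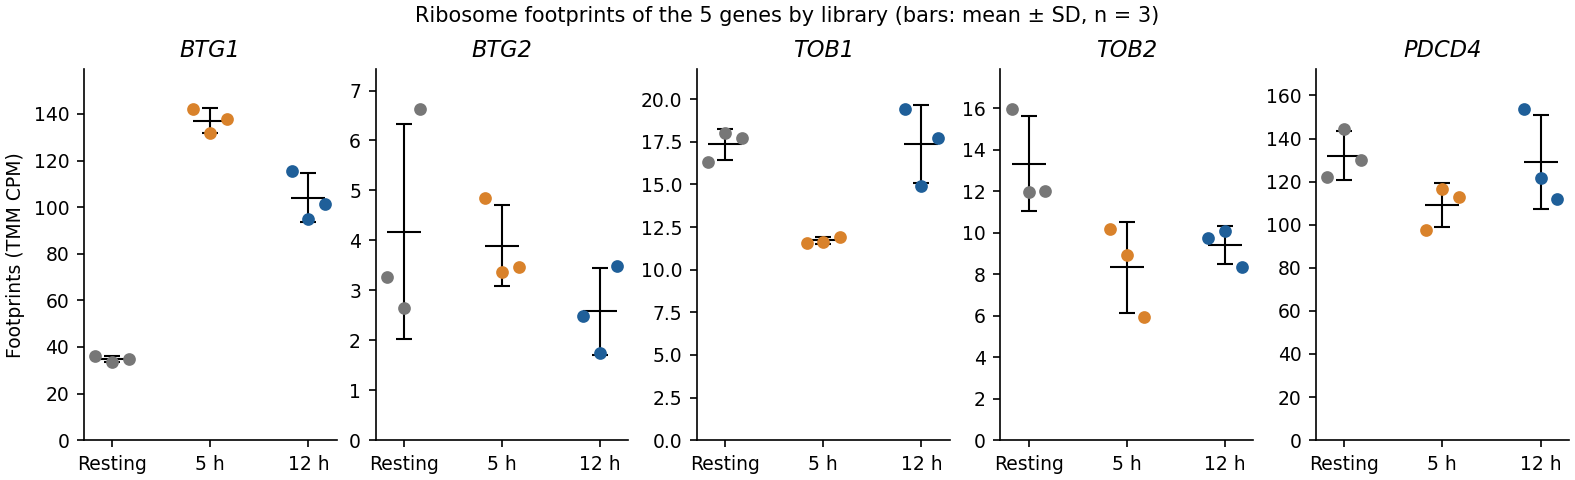
Footprint level in TMM CPM (y axis, from 0, with its own scale in each panel) for each gene in resting, 5 h and 12 h libraries. Points are single libraries and bars the mean ± SD (n = 3): BTG1 sits at 33.7 to 36.2 at rest, 132 to 142 at 5 h and 95.02 to 116 at 12 h, and TOB1 dips at 5 h only.

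BTG1 takes its name from a translocation in B cell leukaemia and is a binding partner of both CNOT7 and CNOT8. It had 311, 307 and 335 counts in the resting libraries, 1410, 1757 and 2537 at 5 h, and 1352, 434 and 754 at 12 h. After scaling these were 36.2, 33.7 and 34.7 CPM at rest, 142, 132 and 138 CPM at 5 h, and 116, 95.02 and 101 CPM at 12 h. The 3 groups did not overlap: every 5 h library was above every 12 h library, and every 12 h library was far above every resting one. The level averaged 137 ± 5.23 CPM at 5 h and 34.9 ± 1.25 CPM at rest (SD, n = 3 each). This is a log2 fold change of 1.98 ± 0.11 (SE), or 3.93-fold with a 95% interval from 3.363 to 4.596, with adjusted p at 1.09e-12 by edgeR. At 12 h it averaged 104 ± 10.6 CPM, against 34.9 ± 1.25 CPM at rest (SD, n = 3 each), a log2 fold change of 1.58 ± 0.11 (SE), or 2.99-fold with an interval from 2.557 to 3.505, with adjusted p at 8.20e-11 by edgeR. Between the activated groups the 12 h level was lower than the 5 h level by a log2 fold change of -0.39 ± 0.10 (SE), with an adjusted p of 0.00561 by edgeR.

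Among all tested IDs, 96.0% had a lower fold change than BTG1 at 5 h and 94.8% at 12 h. Among the 7741 IDs that averaged at least 16 CPM, which leaves out many weakly covered genes with large fitted folds, these shares were 98.6% and 98.8%. BTG1's course, a called rise at both times and a called decline from 5 h to 12 h, was shared by 238 IDs, 1.71% of those tested. RefSeq places the long noncoding RNA LINC01619 over the BTG1 locus. Use of strand in the counting was not given in the sources used here, and no other ID in the table had the same counts as any of the 5 genes.

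**Figure D2:**
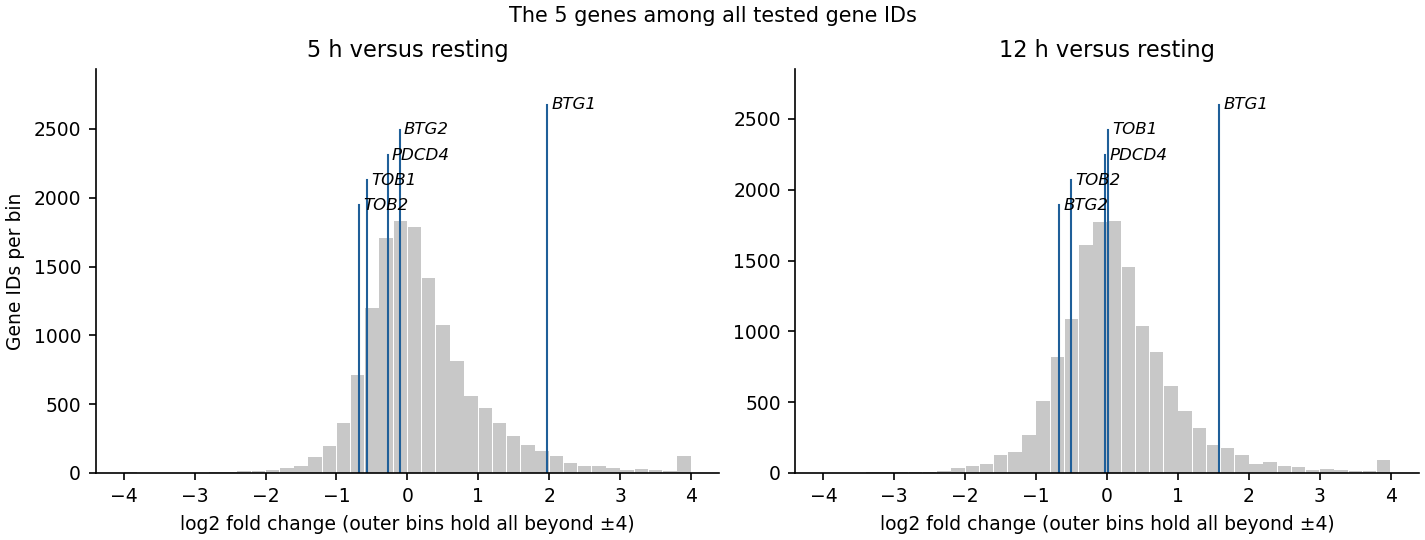
Number of gene IDs (y axis) by log2 fold change in bins of 0.2 (x axis, grey bars) at 5 h and at 12 h versus resting, with blue lines at the values of the 5 genes. BTG1 lies in the right tail at 1.98 and 1.58, while the other 4 genes lie between -0.69 and 0.01, left of or at the centre.

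BTG2, the closest relative of BTG1 in the family, is an immediate early gene in other cell types and a target of p53. It had 28, 24 and 64 counts at rest, 48, 45 and 64 at 5 h, and 29, 8 and 26 at 12 h. The scaled levels were 3.26, 2.64 and 6.63 CPM at rest, 4.84, 3.37 and 3.48 CPM at 5 h, and 2.48, 1.752 and 3.496 CPM at 12 h. All 3 groups overlapped, and resting replicate 3 held the highest value of all. The mean was 3.90 ± 0.818 CPM at 5 h and 4.18 ± 2.15 CPM at rest (SD, n = 3 each), a log2 fold change of -0.11 ± 0.44 (SE) with an adjusted p of 0.868 by edgeR. The 95% interval of the fold, 0.494 to 1.74, leaves out a rise as large as that of BTG1 at 5 h and holds both a fall and a rise of moderate size. At 12 h the mean was 2.58 ± 0.876 CPM, against 4.18 ± 2.15 CPM at rest (SD, n = 3 each), a log2 fold change of -0.68 ± 0.46 (SE), an interval of the fold from 0.323 to 1.21 with adjusted p at 0.274 by edgeR. Both values depended on 1 library: without resting replicate 3 the log2 fold change was 0.39 at 5 h, with an adjusted p of 0.589 by edgeR, and -0.18 at 12 h.

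Because both genes are read in the same library, their ratio does not depend on the scaling. There were 0.0340, 0.0256 and 0.0252 BTG2 footprints per BTG1 footprint in the 5 h libraries, against 0.0900, 0.0782 and 0.191 in the resting libraries. At 12 h the ratios were 0.0214, 0.0184 and 0.0345, again below every resting library. The mean log2 ratio was -5.16 ± 0.24 at 5 h and -3.18 ± 0.69 at rest (SD, n = 3 each), a difference of -1.98. At 12 h it was -5.39 ± 0.47, against -3.18 ± 0.69 at rest (SD, n = 3 each), a difference of -2.21. Exact permutation, two-sided, gave p = 0.1 in either case, which is the lowest value 3 libraries against 3 allow. The 12 h and 5 h ratios overlapped, with a difference of -0.23 and an exact permutation p of 0.5. With 1 library left out, the difference from rest ranged from -2.23 to -1.58 at 5 h and from -2.47 to -1.81 at 12 h. The lower ratio contains the rise of BTG1 and is not a separate result on BTG2, which was not called.

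The sequences before the starts of these relatives are shown because BTG1 rose and BTG2 was not called. Each is the 250 bases upstream of the gene start in RefSeq on GRCh38.p14, read 5′ to 3′ on the gene's strand: chr12:92145847-92146096, minus strand, for BTG1 and chr1:203305269-203305518, plus strand, for BTG2. All 5 genes matched an entry of RefSeq's promoter table, TOB1 with 2. Capitals mark matches on either strand to a CRE half-site (TGACG), a FOXO site (TGTTTAC) or an EGR site (GCGGGGGCG).
BTG1: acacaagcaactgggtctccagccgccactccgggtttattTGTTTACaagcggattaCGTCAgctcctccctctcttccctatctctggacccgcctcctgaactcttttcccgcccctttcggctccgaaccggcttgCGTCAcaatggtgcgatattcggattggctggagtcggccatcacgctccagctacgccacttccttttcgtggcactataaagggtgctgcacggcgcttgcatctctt
BTG2: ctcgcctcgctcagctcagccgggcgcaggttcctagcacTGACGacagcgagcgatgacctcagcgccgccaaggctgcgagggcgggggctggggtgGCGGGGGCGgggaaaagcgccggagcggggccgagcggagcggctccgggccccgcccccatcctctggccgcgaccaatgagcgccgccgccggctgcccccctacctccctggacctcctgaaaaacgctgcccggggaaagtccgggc
The BTG1 window held 2 CRE half-sites in reverse orientation, at 192 and 110 bases before the start, and 1 FOXO site at 209 bases before it. The BTG2 window held 1 CRE half-site at 210 and 1 EGR site at 151 bases before the start. A CRE half-site also lay in 1 of the 2 TOB1 windows. Of 35114 promoter windows of the same length in the table, 21.2% held a CRE half-site, 2.98% the FOXO site and 4.72% the EGR site. The windows also differed in base composition, with 56.4% G and C for BTG1 and 74.8% for BTG2, beside a median of 58% over all windows. The NFAT core GGAAA, which 55.7% of all windows held, occurred in 4 of the 5 genes, all but TOB1. The full CRE (TGACGTCA, which contains the half-site), the AP-1 site (TGANTCA), the E-box (CACGTG), the CArG box, the p53 half-site and the kappaB site had no match in any of the 6 windows. These matches describe letters only, and no binding was measured.

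TOB1, a BTG-domain protein first found as a partner of the receptor ErbB2, dipped at 5 h. It had 140, 164 and 171 counts at rest, 115, 155 and 220 at 5 h, and 227, 68 and 132 at 12 h. The levels were 16.3, 18.0 and 17.7 CPM at rest, 11.6, 11.6 and 11.9 CPM at 5 h, and 19.4, 14.9 and 17.7 CPM at 12 h. The 5 h libraries lay below all others, and the 12 h libraries ranged on both sides of the resting ones. The mean was 11.7 ± 0.196 CPM at 5 h and 17.3 ± 0.917 CPM at rest (SD, n = 3 each), a log2 fold change of -0.57 ± 0.18 (SE) with an adjusted p of 0.0187 by edgeR. At 12 h it was 17.4 ± 2.30 CPM, against 17.3 ± 0.917 CPM at rest (SD, n = 3 each). That log2 fold change was 0.01 ± 0.18 (SE), with a 95% interval of the fold from 0.775 to 1.31 with adjusted p at 0.970 by edgeR. The level at 12 h was higher than at 5 h by a log2 fold change of 0.58 ± 0.18 (SE), with an adjusted p of 0.0225 by edgeR.

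A called fall at 5 h, no call at 12 h versus resting and a called rise from 5 h to 12 h was the course of 577 IDs, 4.15% of those tested. Between 12 h and 5 h, 1 of the 5 genes was called higher, TOB1, and 1 lower, BTG1, beside 25.1% of all IDs in either direction, 11.6% higher and 13.5% lower. The TOB1 calls stood near the threshold. The 5 h call was lost without 5 h replicate 2 (adjusted p of 0.0505 by edgeR), and the call of 12 h against 5 h was lost without 5 h replicate 1 or 2 or 12 h replicate 1 or 3, with adjusted p of 0.0527, 0.0654, 0.125 and 0.0670 by edgeR. The log2 fold changes themselves were -0.61 to -0.54 at 5 h versus resting and 0.48 to 0.66 at 12 h versus 5 h with any 1 library left out. RefSeq places the antisense RNA TOB1-AS1 over TOB1, and without strand in the counting their fragments cannot be told apart.

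TOB2, the near relative of TOB1, had 137, 109 and 116 counts at rest, 101, 119 and 109 at 5 h, and 114, 46 and 62 at 12 h. Its levels were 15.95, 11.98 and 12.02 CPM at rest, 10.2, 8.92 and 5.92 CPM at 5 h, and 9.76, 10.1 and 8.34 CPM at 12 h. On the TMM scale every activated library at either time was below every resting library, and the 5 h and 12 h libraries overlapped. Without the TMM factors that gap is narrow: resting replicate 2 had 109 of 10171929 counts, and 5 h replicate 1 had 101 of 9492122. The mean was 8.34 ± 2.19 CPM at 5 h and 13.3 ± 2.28 CPM at rest (SD, n = 3 each), a log2 fold change of -0.69 ± 0.24 (SE) with an adjusted p of 0.0300 by edgeR. At 12 h it was 9.39 ± 0.925 CPM, against 13.3 ± 2.28 CPM at rest (SD, n = 3 each), a log2 fold change of -0.51 ± 0.25 (SE) with an adjusted p of 0.120 by edgeR. From 5 h to 12 h the log2 fold change was 0.18 ± 0.25 (SE), with an adjusted p of 0.675 by edgeR. The 5 h call was lost without resting replicate 1, at -0.54 and an adjusted p of 0.144, and without 5 h replicate 3, at -0.51 and an adjusted p of 0.136 by edgeR.

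Whether the TOB genes differed from each other was read from their ratio within libraries. There were 0.878, 0.768 and 0.495 TOB2 footprints per TOB1 footprint at 5 h, against 0.979, 0.665 and 0.678 at rest. The 12 h ratios were 0.502, 0.676 and 0.470. The groups overlapped in every pairing. The mean log2 ratio at 12 h was -0.88 ± 0.28, against -0.39 ± 0.31 at rest (SD, n = 3 each), a difference of -0.49 with a two-sided exact permutation p of 0.2. The difference was -0.13 for 5 h versus resting (exact permutation p of 0.8) and -0.36 for 12 h versus 5 h (exact permutation p of 0.3). With 3 libraries against 3 no exact permutation p could fall under 0.1, so these tests cannot settle whether the TOB genes differ in course. With 1 library left out the difference ranged from -0.30 to 0.11 for 5 h versus resting, changing sign without resting replicate 1 or 5 h replicate 3, and from -0.60 to -0.19 for 12 h versus 5 h.

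**Figure D3:**
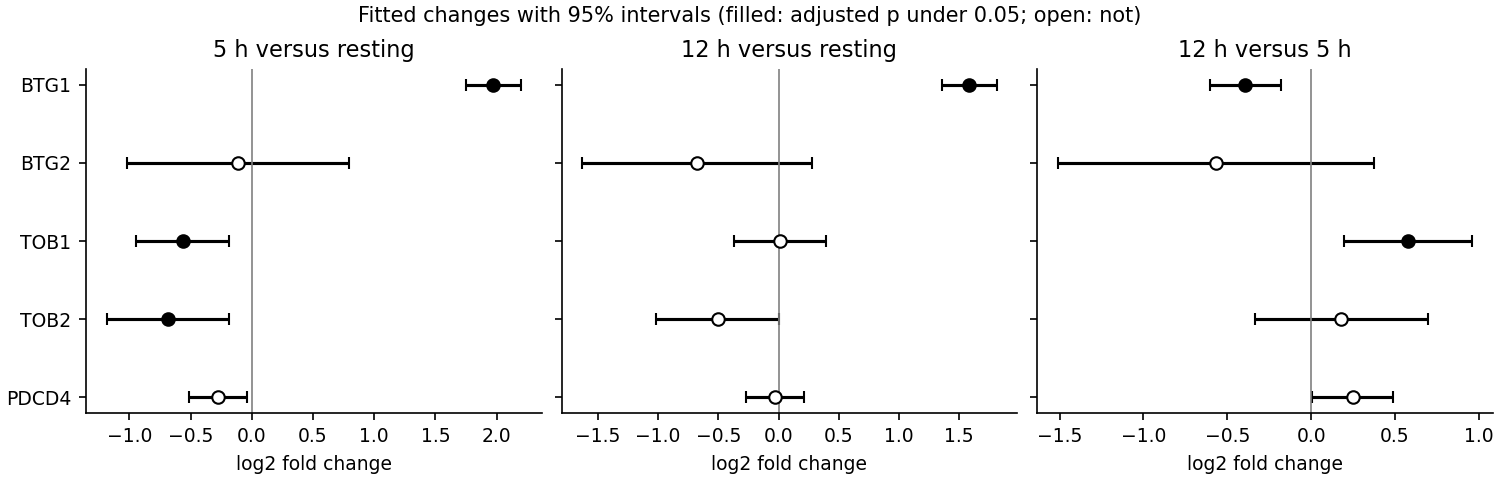
Fitted log2 fold change (x axis) of each gene in the 3 comparisons, with 95% intervals as bars and filled points at an adjusted p under 0.05. BTG1 is far right of 0 against resting cells at both times, TOB1 is left of 0 at 5 h and at 0.01 at 12 h, and the BTG2 intervals are the widest of the 5.

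Summed over the 4 family members, footprints were more numerous after activation, and BTG1's share of them was larger. The sum and the share are not corrected for coding length, so only their differences between groups are read, not the standing of one gene against another. The summed level was 71.7, 66.4 and 71.1 CPM at rest, 169, 156 and 159 CPM at 5 h, and 147, 122 and 131 CPM at 12 h, with no overlap between any 2 groups. It was 2.31-fold higher at 5 h than at rest, 161 ± 6.80 CPM against 69.7 ± 2.92 CPM (SD, n = 3 each), and 1.91-fold higher at 12 h, 133 ± 12.997 CPM against 69.7 ± 2.92 CPM. BTG1 gave 50.5%, 50.8% and 48.8% of the family's counts at rest, 84.2%, 84.6% and 86.6% at 5 h, and 78.5%, 78.1% and 77.4% at 12 h. Two-sided exact permutation tests gave p = 0.1 in each pairing of groups for the sum, the smallest value possible. Of the 4 genes only BTG1 was called higher than at rest, and TOB1 and TOB2 were called lower at 5 h. The sum therefore follows BTG1 and is not a separate result for the family.

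**Figure D4:**
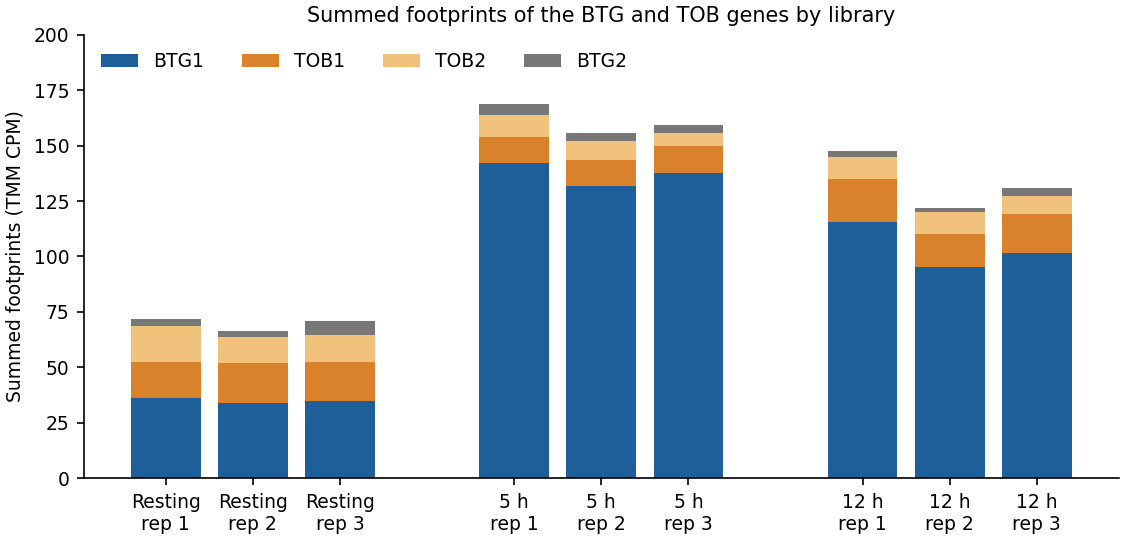
Footprints of BTG1, TOB1, TOB2 and BTG2 in TMM CPM, stacked for each of the 9 libraries. The resting stacks reach 66.4 to 71.7, the 5 h stacks 156 to 169 and the 12 h stacks 122 to 147, and BTG1, at the bottom, accounts for the added height.

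PDCD4, the eIF4A inhibitor, had 1049, 1314 and 1253 counts at rest, 967, 1555 and 2081 at 5 h, and 1796, 555 and 833 at 12 h. The levels were 122, 144 and 130 CPM at rest, 97.5, 117 and 113 CPM at 5 h, and 154, 122 and 112 CPM at 12 h. On the TMM scale all 5 h libraries were below all resting libraries, and the 12 h libraries covered the resting range and beyond it on both sides. The TMM factors were 0.895 to 0.951 at rest and 0.997 to 1.05 at 5 h. Without them the resting and 5 h ranges overlap: 5 h replicate 2 had 1555 of 13026762 counts, and resting replicate 1 had 1049 of 9239287. The mean was 109 ± 10.1 CPM at 5 h and 132 ± 11.3 CPM at rest (SD, n = 3 each). The log2 fold change of -0.28 ± 0.12 (SE), or 0.826-fold with a 95% interval from 0.700 to 0.9746, had an adjusted p of 0.0683 by edgeR and was not called. DESeq2 and limma on the deposited log2 values placed it just past the threshold, with log2 fold changes of -0.30 in both and adjusted p of 0.0461 and 0.0362. At 12 h the mean was 129 ± 21.9 CPM, against 132 ± 11.3 CPM at rest (SD, n = 3 each), a log2 fold change of -0.03 ± 0.12 (SE), an interval of the fold from 0.830 to 1.16 with adjusted p at 0.882 (edgeR). The difference of 12 h from 5 h was 0.25 ± 0.12 on the log2 scale (SE), at an adjusted p of 0.130 (edgeR), and was 0.093 without 12 h replicate 1. BBIP1 and MIR4680 overlap the PDCD4 locus in RefSeq. At 5 h, 4 of the 5 genes had no overlap between activated and resting libraries on the TMM scale, beside 45.7% of all tested IDs. At 12 h versus resting these were BTG1 and TOB2, 2 of 5 beside 45.8%, and at 12 h versus 5 h BTG1 and TOB1, 2 of 5 beside 39.1%.

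Over the 9 libraries, the log2 levels of TOB1 and PDCD4 correlated at a Pearson r of 0.76, and BTG1 ran against TOB2 (r of -0.77) and TOB1 (r of -0.60). These are descriptions over 9 libraries that share 3 group means. Among the IDs averaging at least 16 CPM, the course most like that of BTG1 belonged to ENSG00000143185.4 (r of 0.996), with ENSG00000163508.13 next (r of 0.995). The first averaged 0.0388 CPM at rest, 359 CPM at 5 h and 60.7 CPM at 12 h, and the second 4.70 CPM at rest, 134 CPM at 5 h and 57.7 CPM at 12 h. In all, 346 of 7740 IDs correlated with BTG1 above 0.9, 157 of 7741 with TOB1, 5 with TOB2, 9 with PDCD4 and 0 with BTG2. The course most like TOB1 was that of ENSG00000183137.15 (r of 0.983), with means of 76.0 CPM at rest, 38.1 CPM at 5 h and 76.2 CPM at 12 h. The course most like PDCD4 was that of ENSG00000198380.13 (r of 0.968), with means of 142 CPM at rest, 113 CPM at 5 h and 142 CPM at 12 h.

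**Figure D5:**
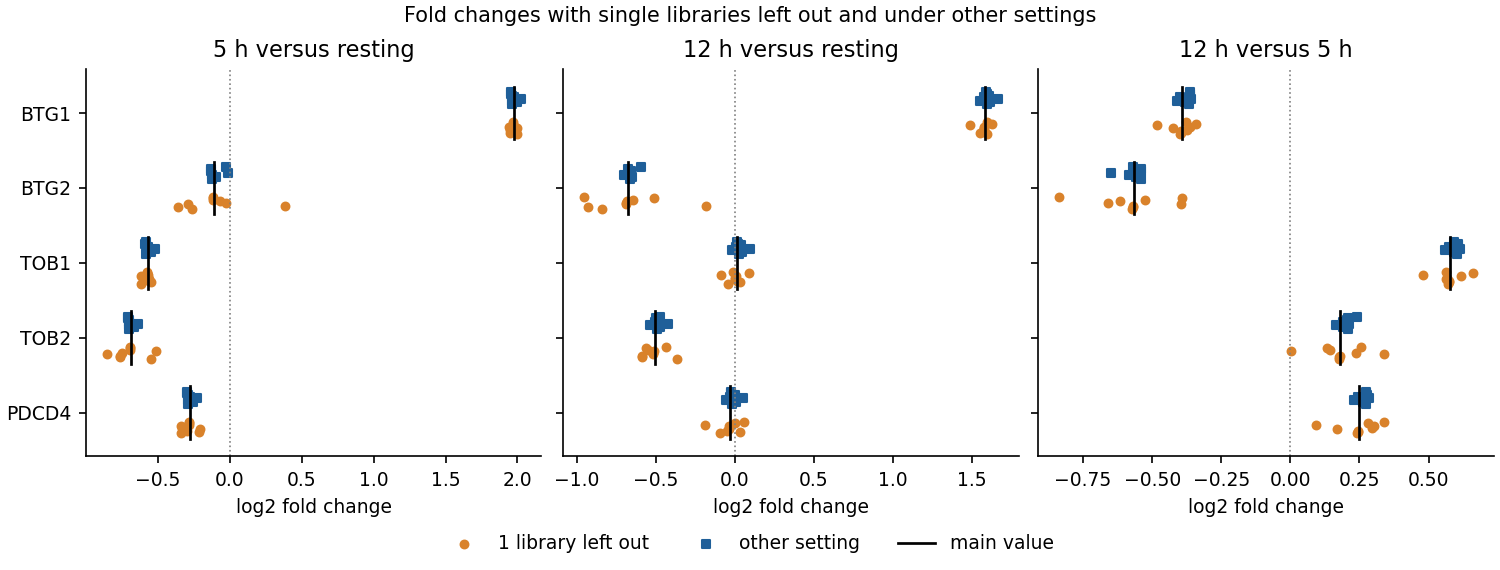
Log2 fold change (x axis) of each gene in the 3 comparisons with 1 library left out (orange circles) or under another setting (blue squares), beside the value reported (black line). BTG1 stays at 1.94 to 1.998 at 5 h versus resting with any library left out, while BTG2 spreads from -0.36 to 0.39.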

How the data were processed

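Ribosome footprints were measured in 9 libraries, 3 per group. The deposited count table holds whole-number counts per versioned Ensembl ID, not normalized. A second deposited table holds log2 values made by the authors; they equal log2 of the count over 1 size factor per library, plus 1, within 5.03e-09. Per the submitters' processing notes, cutadapt 3.2, Bowtie, bedtools, RSEM and DESeq2 were used with GRCh38.p13, their roles, the annotation and the footprint isolation being not given in the sources used here.

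All 3 comparisons were tested with edgeR 4.0.16 in R 4.3.3 in 1 fit of 9 libraries (filterByExpr, TMM, glmQLFTest) with 1 mean per group. SE is the absolute log2 fold change over the root of F, and 95% intervals use the fit's degrees of freedom. The edgeR fit was tried on simulated counts for 5 h versus resting only, and the other steps were not tried on simulated data. Log2 CPM for correlations used a prior count of 2. Alternatives used DESeq2 1.42.0, limma 3.58.1, other scalings and filters, 6 libraries per fit, a replicate block and single libraries left out.

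Depth limits precision through counting error, which was 2.37% to 5.62% of the group mean for BTG1 and 14.3% to 23.1% for BTG2. Duplicate amplified fragments are not independent molecules.

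The 5 genes and all lists were chosen with earlier results of these data known. The rule named the 5 genes, BTG3, BTG4, genes from lists of CCR4-NOT, eIF4F, PDCD4-regulating, quiescence and G1 genes, and the most similar courses. The lists and the T cell and other cell type markers are held by symbol, and the tables used here pair no other Ensembl ID with a symbol, so these were not analysed here, the cell type was not checked, and similar courses are given by ID for BTG1, TOB1 and PDCD4. Levels per codon were not computed because no protein lengths were used here.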

Additional observations from a re-analysis of the deposited data

Results flagged for a closer look

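For BTG1 and TOB1 the effect, meaning the difference from resting cells, differed between the time points. This was tested directly as 12 h against 5 h in edgeR's fit. The BTG1 effect was smaller at 12 h, by a log2 difference of -0.39 with an adjusted p of 0.00561, and all 3 libraries at 12 h lay below all 3 at 5 h. The TOB1 effect, a called fall at 5 h and no call at 12 h, differed by 0.58 on the log2 scale, with an adjusted p of 0.0225 by edgeR, and all 3 libraries at 12 h lay above all 3 at 5 h. The BTG1 call held in every setting, though its adjusted p rose to 0.0421 by edgeR without 12 h replicate 2. The TOB1 call stood near the threshold. It was lost with no low-count filter and without 5 h replicate 1 or 2 or 12 h replicate 1 or 3 (adjusted p of 0.0519 to 0.125 by edgeR). The 2 effects share the resting libraries, which cancel in this difference. Groups of 3 libraries were not screened for single outlying values.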

How the results depend on the processing

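Of 372 values recomputed under other settings, 346 kept their direction and their side of the threshold or, for counts and for values with no passable test, moved by less than 1.5 times or by less than 1 SD between replicates. Values within 1 SD include the TOB2 to TOB1 ratio at 5 h versus resting, whose difference of -0.13 changed sign with 1 library left out (-0.30 to 0.11). All BTG1 calls held in every setting, with log2 fold changes of 1.94 to 1.998 at 5 h, 1.49 to 1.63 at 12 h and -0.48 to -0.34 for 12 h versus 5 h when 1 library was left out. The last call came near the threshold without 12 h replicate 2 (adjusted p of 0.0421 by edgeR). For PDCD4 at 5 h the call was gained with no low-count filter (-0.29, adjusted p of 0.0473), in the 6 libraries alone (-0.29, 0.0447), with DESeq2 (-0.30, 0.0461), with limma (-0.30, 0.0362) and without 12 h replicate 1 (-0.28, 0.0467). The range with 1 library left out was -0.34 to -0.21. PDCD4 at 12 h versus resting, never called, had the other sign with upper quartile scaling (0.0080), at least 50 counts in 3 libraries (0.054), the 6 libraries alone (0.00068) and some libraries left out (-0.19 to 0.056: 0.03 without resting replicate 2, 0.00040 without 12 h replicate 2 and 0.056 without 12 h replicate 3). TOB1 at 12 h versus resting, never called, was -0.016 with no filter and -0.089 to 0.090 with 1 library left out (-0.04 without resting replicate 1, -0.089 without 12 h replicate 1 and -0.0085 without 12 h replicate 3). TOB1 at 12 h versus 5 h lost its call with no filter (0.56, 0.0519) and ranged from 0.48 to 0.66 with 1 library left out; at 5 h it ranged from -0.61 to -0.54. TOB2 at 5 h ranged from -0.85 to -0.51 and BTG2 at 5 h from -0.36 to 0.39. Among comparisons never called, 1 library left out gave -0.95 to -0.18 for BTG2 at 12 h versus resting, and for 12 h versus 5 h 0.093 to 0.34 for PDCD4 and 0.0015 to 0.34 for TOB2. With plain library totals the summed family level exceeded rest by 100.2 CPM at 5 h and 76.0 CPM at 12 h, against 91.4 and 63.6 CPM with TMM. The cause of these changes was not tested. No label says that a replicate number marks a shared batch. Deviations of same-numbered libraries correlated at -0.06 to 0.09, against -0.11 to 0.09 for differently numbered ones, and 3 of 9 libraries correlated best with their own number. With deviations taken within groups of 3, these values cannot settle whether the libraries were paired. The replicate block changed no call of the 5 genes (BTG1 at 5 h 1.98, TOB1 -0.57, TOB2 -0.70, PDCD4 -0.27), and gave 4644, 4689 and 3373 called IDs, against 4797, 4887 and 3497 without it. Low counts limit BTG2 most, with 8 in 12 h replicate 2.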

Other observations

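The spread of TOB1 at 5 h, 1.67% of its mean, was smaller than the 8.08% that counting alone gives at its depth, so the tightness of those 3 libraries says little about the variation between cultures. The spread was also below counting for TOB1 and BTG1 at rest and for TOB2 at 12 h. In every other gene and group the reverse held. BTG2 at rest varied by 51.4% of the mean against 16.1% from counting, and PDCD4 at 12 h by 16.9% against 3.31%. TOB2 varied by 26.3% against 9.83% at 5 h and by 17.1% against 9.11% at rest, and BTG1 at 12 h by 10.2% against 3.70%.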
